A study of Rattus norvegicus with 8 samples.

Results

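Atypical chemokine receptors are membrane receptors that bind chemokines, the small proteins that guide leukocytes, without starting the G protein signals of conventional chemokine receptors. Most of them carry their ligand into the cell, recycle and so remove or redistribute it, and in many tissues they sit on endothelial cells of particular vessel types. The genes described here are Ackr1, Ackr2, Ackr3 and Ackr4, the chemerin-binding receptor gene Ccrl2, and Gpr182, whose product is an endothelial receptor that takes up chemokines in a similar way. They were picked by symbol in the deposited expression table of rat lung. Of these 6 genes, 5 had a row among the 32623 genes of the table, each with a single row, and all 5 passed the filter on low counts that left 16715 genes. Ackr1 was not analysed here.

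The lungs came from rats given monocrotaline (MCT, 4 libraries), a plant toxin used to produce pulmonary hypertension, and from control rats (4 libraries). RNA was captured with oligo(dT) from whole lung tissue. The labels used here give only the tissue and the treatment, with no strain, age, dose, time after treatment or vehicle. They do not tie libraries to animals, so p-values measure only the spread between these libraries, which may be technical. The 6 receptors were proposed with the differences between MCT and control lungs already known, so their values in this contrast are given as a description and no test is rested on them.

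Lung markers were present in both groups, with the surfactant gene Sftpc at 21500 ± 3580 FPKM (SD, n = 4) in control and 15200 ± 1420 in MCT. FPKM, fragments scaled to transcript length and library size, is the authors' value and is the scale of every level given here. The deposited estimated counts summed to 39775184 to 66569839 units per library, and the read pairs given below are these units divided by 3.69. Control 1 and MCT 1 stood apart from the other libraries in ciliated airway cell transcripts, with mean log2 CPM of 4.57 and 5.04 against 2.89 to 4 in the rest. A gene is called higher or lower below where edgeR's quasi-likelihood test over all 16715 genes gave a Benjamini-Hochberg adjusted p under 0.05.

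In MCT lungs Gpr182, Ackr4 and Ccrl2 were called lower, Ackr2 was called higher and Ackr3 was not called. Over all genes tested, 9.45% were called lower, 11% higher and 20.5% either way, and nothing is read from the receptors' counts against these shares because the genes were proposed on this contrast. Gpr182 stood at 21.5% of its control level, Ackr4 at 23.0% and Ccrl2 at 40.1%, in mean FPKM. In whole lung RNA, fewer cells of a type and less RNA per cell cannot be told apart.

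The FPKM ranges of the groups did not overlap for 4 of the 5 receptors, 1 higher and 3 lower in MCT. Over all genes tested this held for 13.3% (higher), 11.7% (lower) and 25% (either way), and nothing is read from it for the same reason.

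**Figure D1:**
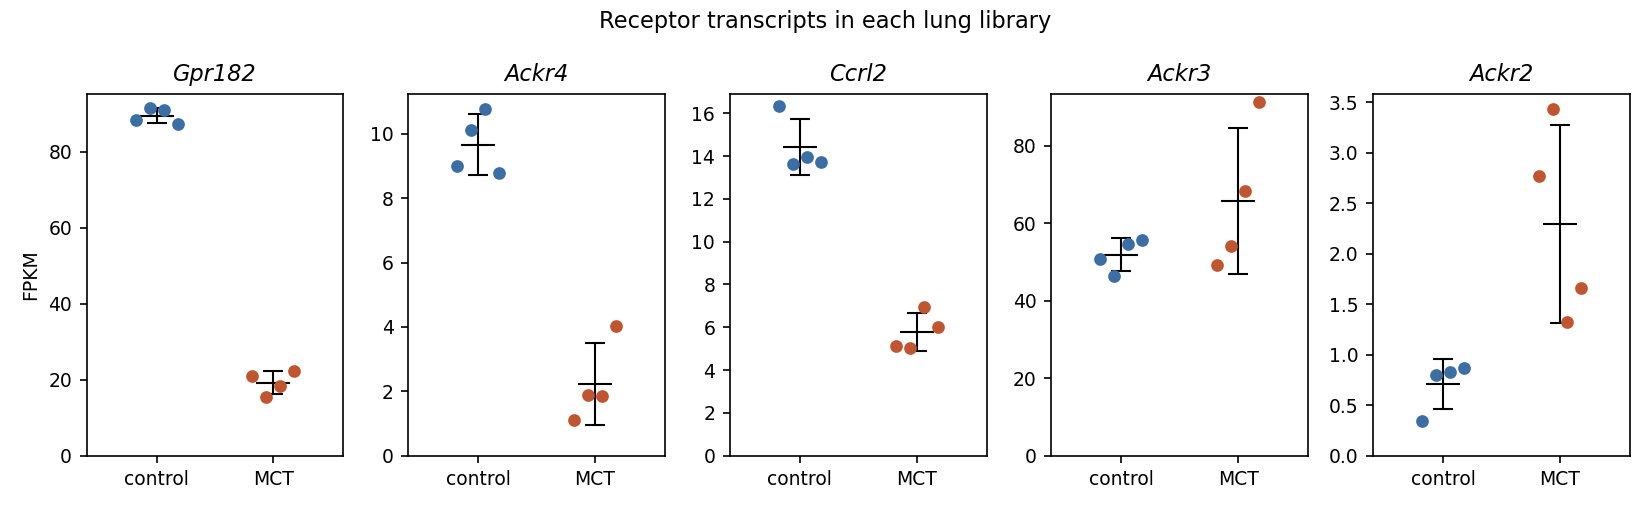
FPKM (linear axes from 0, each with its own range) of the 5 measured receptors in the 4 control and 4 MCT libraries; points are libraries, and the black marks are the mean and SD of each group. The groups do not overlap for Gpr182, Ackr4, Ccrl2 and Ackr2, while for Ackr3 the MCT values span 49.3 to 91.3 and overlap the control values.

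The promoters of the 3 receptor genes that were lower together are shown because these genes moved in the same direction. Each line is the 250 bases before the gene's start in RefSeq on the build GRCr8, 5′ to 3′ on the gene's strand, while the expression table uses Rnor_6.0. Capitals mark GGAAG on either strand (CTTCC on the other), the core that ETS transcription factors bind. The windows are chr7:65474111-65474360 for Gpr182, chr8:113599763-113600012 for Ackr4 and chr8:119914974-119915223 for Ccrl2, all on the minus strand.
Gpr182: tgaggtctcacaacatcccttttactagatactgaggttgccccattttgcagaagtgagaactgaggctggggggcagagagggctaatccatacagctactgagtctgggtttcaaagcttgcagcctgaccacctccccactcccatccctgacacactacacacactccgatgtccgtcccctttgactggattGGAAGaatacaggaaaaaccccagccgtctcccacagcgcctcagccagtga
Ackr4: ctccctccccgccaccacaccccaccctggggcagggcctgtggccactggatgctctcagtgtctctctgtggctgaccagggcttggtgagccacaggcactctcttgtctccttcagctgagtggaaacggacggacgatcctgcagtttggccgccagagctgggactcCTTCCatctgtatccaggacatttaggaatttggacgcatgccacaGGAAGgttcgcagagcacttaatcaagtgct
Ccrl2: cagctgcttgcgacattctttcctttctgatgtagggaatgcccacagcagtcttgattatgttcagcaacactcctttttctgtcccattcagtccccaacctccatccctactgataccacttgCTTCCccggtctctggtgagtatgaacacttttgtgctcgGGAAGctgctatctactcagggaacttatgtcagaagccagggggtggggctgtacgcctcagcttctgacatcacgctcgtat

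Promoters of 5 of the 6 genes were matched in the RefSeq table. GGAAG occurred 1 time in the Gpr182 window, starting 52 bases before the gene's start, and there it overlapped a CCAAT match on the other strand. It occurred 2 times in the Ackr4 window, at 77 and 31 bases, and 2 times in the Ccrl2 window, at 124 and 84 bases. Ackr3 had 1 match, at 238 bases, and Ackr2 had 0. Of all 33469 promoters in the table, 63.3% held GGAAG in a window of this length, so a match is common. TATAAA, the TATA box, was found on either strand in 12.9% of promoters and in 1 of the 5 receptors, Ackr3, at 54 bases. CACCC, bound by Krüppel-like factors, was found in Ackr2, Ackr4 and Ccrl2, against 49.2% of all promoters. AGATAA, bound by GATA factors, was found in none of the 5 windows, against 10.3% of all promoters, and CCAAT only in that of Gpr182, against 34.0%. Both strands were searched for every motif, and a match is a run of letters, not a binding site.

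Gpr182 (ENSRNOG00000004311) lies on the minus strand of chromosome 7 from 71045543 to 71048383 (Rnor_6.0). It binds Cxcl10, Cxcl12 and Cxcl13 among other chemokines and marks sinusoidal, lymphatic and some capillary endothelium. In control libraries 1 to 4 it was at 88.3, 91.4, 91.1 and 87.4 FPKM, and in MCT libraries 1 to 4 at 21.0, 15.5, 18.3 and 22.2 FPKM. The control libraries lay within a few FPKM of each other, with a coefficient of variation of 2.24%, and every MCT library was far below them. The log2 fold change was -2.22 (SE 0.12), a 4.65-fold fall, and only 80 of the 16715 genes tested had a lower one. Among the receptors it was the most abundant in control lungs, at the 94.7th percentile of the genes tested, and in MCT lungs it stood at the 73.3rd percentile. The gene lies inside LOC100365958, on the opposite strand, which was at 1.28 ± 0.108 FPKM in control and 1.11 ± 0.125 in MCT. The counting is not stated to use strand, so reads of the overlapping pair cannot be told apart.

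Ackr4 (ENSRNOG00000011478, chromosome 8 from 112644222 to 112648880, minus strand) encodes the scavenger of Ccl19, Ccl21 and Ccl25, the chemokines that draw dendritic cells and T cells through Ccr7 and Ccr9. Its level was 8.99, 10.1, 10.8 and 8.78 FPKM in control libraries 1 to 4. In MCT libraries 1 to 4 it was 1.11, 1.88, 1.85 and 4.04 FPKM. MCT 4 was the highest of its group but still below every control library. The log2 fold change was -2.12 (SE 0.35), and -2.58 (SE 0.22) without MCT 4. The MCT values rest on about 27, 51, 47 and 153 read pairs. Ackr4 lies within Acad11, an acyl-CoA dehydrogenase gene on the opposite strand, which was at 11.2 ± 1.87 FPKM in control and 11.1 ± 1.62 in MCT and was not called, and reads of this pair cannot be told apart either.

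Ccrl2 (ENSRNOG00000033234, chromosome 8 from 119324613 to 119326938, minus strand) encodes a receptor that holds chemerin at the cell surface and presents it to cells with the signalling receptor Cmklr1. It is made by activated endothelium, mast cells and myeloid cells. Control libraries 1 to 4 were at 16.4, 13.6, 14.0 and 13.7 FPKM, and MCT libraries 1 to 4 at 5.14, 5.04, 6.93 and 6.03 FPKM. Every MCT library was well below the lowest control library, and control 1 stood above the other control libraries. The log2 fold change was -1.32 (SE 0.13), a 2.49-fold fall.

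Ackr2 (ENSRNOG00000019472, chromosome 8 from 130538651 to 130542227, plus strand) encodes the scavenger of inflammatory CC chemokines found on lymphatic endothelium and some leukocytes. It was the lowest of the receptors in control lungs, at 0.34, 0.80, 0.83 and 0.87 FPKM in libraries 1 to 4. In MCT libraries 1 to 4 it was at 2.77, 3.43, 1.32 and 1.66 FPKM. The groups did not overlap, but MCT 1 and MCT 2 were above MCT 3 and MCT 4, and control 1 was below the rest of its group. The log2 fold change was 1.69 (SE 0.42), with about 7 to 15 read pairs behind each control value and 23 to 63 behind each MCT value. Ackr2 was not called without MCT 2 (1.43, SE 0.44), nor with control 1 and MCT 1 both left out (1.34, SE 0.42).

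Ackr3 (ENSRNOG00000019622, chromosome 9 from 97355924 to 97367445, plus strand), earlier known as Cxcr7, encodes the scavenger of Cxcl11 and Cxcl12 and also binds adrenomedullin. It was at 50.8, 46.4, 54.8 and 55.8 FPKM in control libraries 1 to 4 and at 49.3, 54.1, 68.5 and 91.3 FPKM in MCT libraries 1 to 4. MCT 1 and MCT 2 were within the control range and MCT 3 and MCT 4 above it. The log2 fold change was 0.34 (SE 0.17), and 0.13 (SE 0.12) without MCT 4.

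The order of the receptors changed with treatment. In control lungs it ran from Gpr182 through Ackr3, Ccrl2 and Ackr4 to Ackr2, and no 2 neighbours in that order overlapped in any library. In MCT lungs Ackr3 came first, with Gpr182 second and Ccrl2 next, again without overlap. Ackr2 (1.32 to 3.43 FPKM) and Ackr4 (1.11 to 4.04 FPKM) came last and overlapped, with Ackr2 above Ackr4 in 2 of 4 MCT libraries. The ratio of Gpr182 to Ackr3 FPKM was 1.57 to 1.97 in control libraries and 0.243 to 0.425 in MCT libraries. The 5 receptors summed to 162 to 171 FPKM in control and 79.3 to 125 FPKM in MCT. Gpr182 made up 52.5% to 56.3% of that sum in control and 17.7% to 26.5% in MCT, while Ackr3 made up 28.6% to 33.5% and 62.2% to 72.9%. Ackr2 made up 0.206% to 0.523% of it in control and 1.33% to 4.29% in MCT.

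**Figure D2:**
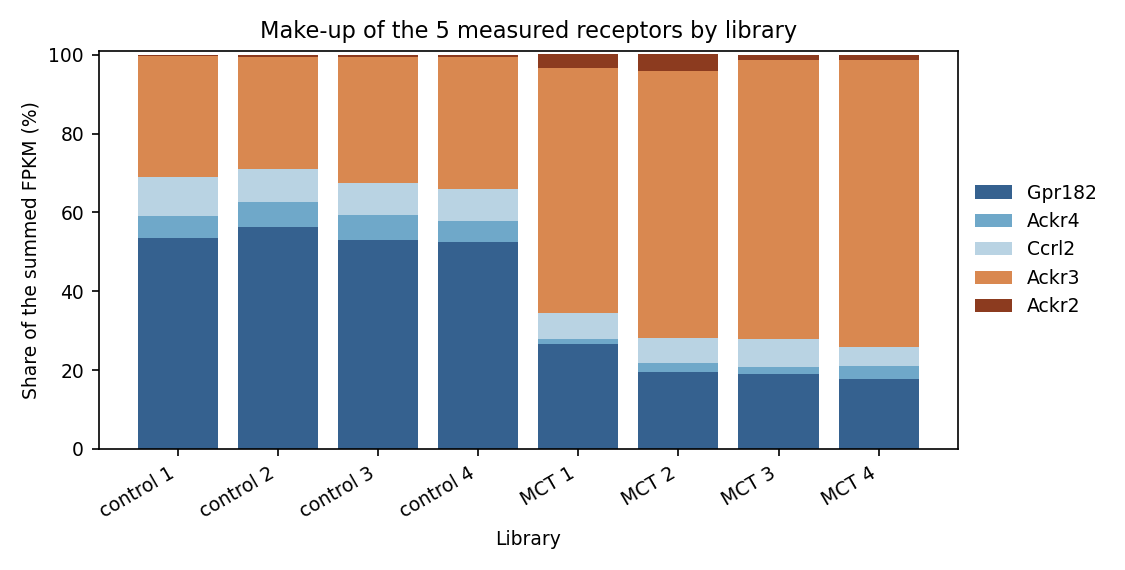
Share (%) of each of the 5 receptors in their summed FPKM, 1 bar per library. Gpr182 takes the largest share in each control library (52.5% to 56.3%) and Ackr3 the largest in each MCT library (62.2% to 72.9%).

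Genes with the most similar course over the 8 libraries were found by the root mean square difference of log2(FPKM + 0.5), each gene centred on its own mean, among 11291 named genes with a mean FPKM of at least 2. Nearest to Gpr182 was Efnb2, the ephrin-B2 gene, at a difference of 0.112, with 83.9 ± 2.08 FPKM in control and 19.5 ± 2.14 in MCT. Sdr9c7, a short-chain dehydrogenase gene, followed at 0.168 and Hey1, a transcription factor gene of the Notch pathway, at 0.173. Nearest to Ackr4 were Tmcc2 (0.238), Clec14a (0.271) and again Hey1 (0.324). Ackr4 was low in MCT lungs (1.11 to 4.04 FPKM), so the added 0.5 shrinks its change on this scale. By edgeR, Tmcc2, Clec14a and Hey1 were at -1.75, -2.04 and -1.99, against -2.12 for Ackr4. Nearest to Ccrl2 were Gimap6 (0.096), Pafah2 (0.117) and Stac2 (0.128). For Ackr3 they were Hs3st1 (0.097), Fam43a (0.111) and Trub2 (0.114). For Ackr2 they were Gpnmb (0.201), a gene of phagocytes and other cells, Meis3 (0.256) and the macrophage gene Cd68 (0.262). Ackr2 lay near the added 0.5, which shrinks its change. Its log2 fold change was 1.17 by limma on this scale and 1.69 by edgeR. These 3 genes, at 1.06 to 1.08 by edgeR, thus match the shrunken course of Ackr2. The measure follows the group difference as well as the course within groups.

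Transcripts of Ccl21, Cxcl12, Adm and Rarres2, ligands of Ackr4, Ackr3, Gpr182 and Ccrl2, rose in MCT lungs. Of 24 ligand genes of the 6 receptors, 22 were tested, of which 7 were called higher, 2 lower and 13 not called. Their median log2 fold change was 0.92, against 0.026 over all genes tested. Over all genes tested, 11% were called higher and 9.45% lower. The ligand lists were chosen with earlier results of these data known, so their counts here and below are a description. Ccl21, the Ackr4 ligand of lymphatic endothelium, was at 72.2, 47.4, 64.2 and 73.5 FPKM in control libraries 1 to 4 and at 272, 692, 409 and 377 FPKM in MCT libraries 1 to 4. Its log2 fold change was 2.77 (SE 0.28, edgeR adjusted p = 0.000565). Of the 5 tested ligands of Ackr4 no other was called, and Ccl19 was at 3.14 ± 2.99 FPKM in control and 4.17 ± 0.896 in MCT. The ratio of Ackr4 to Ccl21 FPKM went from 0.12 to 0.214 in control libraries to 0.00272 to 0.0107 in MCT libraries. Ccr7, the signalling receptor for Ccl19 and Ccl21, had a log2 fold change of -0.03 (SE 0.18) and was not called.

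Cxcl12, a ligand of both Ackr3 and Gpr182, rose from 5.99 ± 0.757 to 17.1 ± 4.62 FPKM (n = 4 each; log2 fold change 1.51, SE 0.18, edgeR adjusted p = 0.000949). Adm, the adrenomedullin gene, rose from 3.64 ± 0.446 to 10.3 ± 2.17 FPKM (edgeR adjusted p = 0.00115). The other 2 tested ligands of Ackr3, Cxcl11 and Mif, were not called. Among the 3 chemokine ligands of Gpr182 only Cxcl12 was called, though Cxcl10 passed without control 3 (log2 fold change 1.27, against 0.92 with all libraries). Cxcl10 also passed with the replicate number as a block. The ratio of Gpr182 to Cxcl12 FPKM was 12.6 to 17.1 in control libraries and 0.676 to 1.8 in MCT libraries. That of Ackr3 to Cxcl12 was 7.24 to 10.3 and 2.36 to 5.58. Rarres2, which encodes chemerin, the ligand of Ccrl2, rose from 72.4 ± 5.04 to 140 ± 17.2 FPKM (log2 fold change 0.95, SE 0.10, edgeR adjusted p = 0.000534). The ratio of Ccrl2 to Rarres2 FPKM was 0.188 to 0.206 in control and 0.0332 to 0.0479 in MCT libraries.

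**Figure D3:**
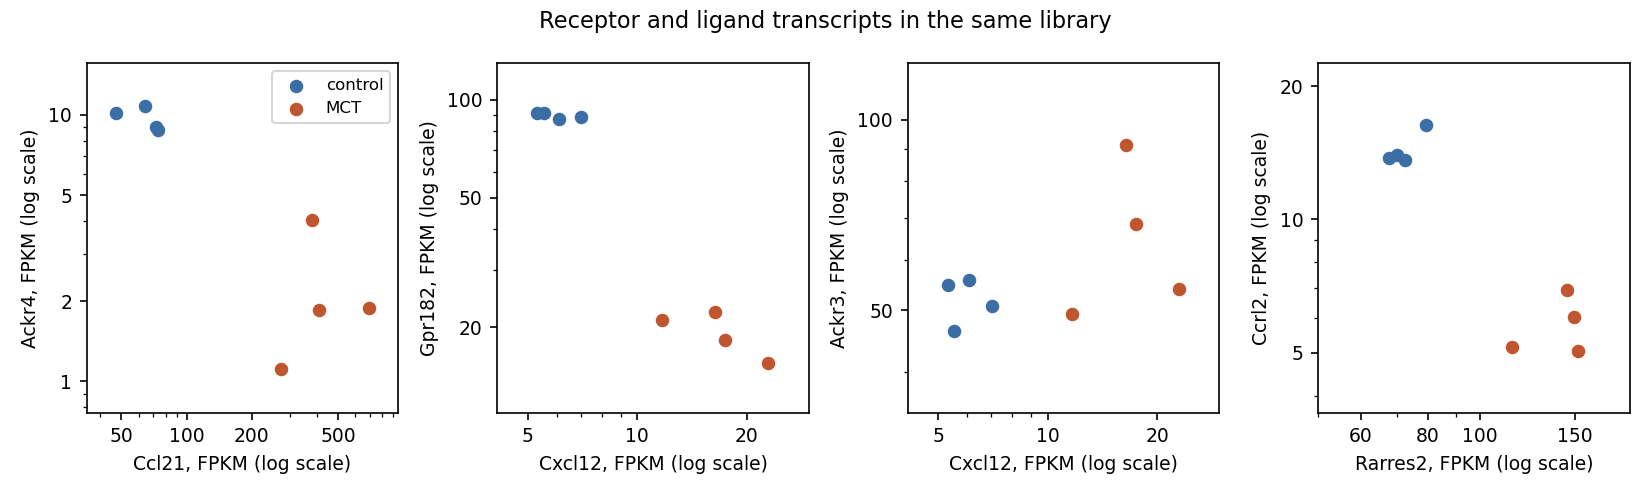
FPKM of a receptor against that of a ligand in the same library (both axes logarithmic, 1 point per library) for Ackr4 and Ccl21, Gpr182 and Cxcl12, Ackr3 and Cxcl12, and Ccrl2 and Rarres2. In all panels the MCT libraries lie to the right of the control libraries, and except for Ackr3 they also lie below them.

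The inflammatory chemokines were mixed. Of 8 tested CC ligands of Ackr2, 2 were called higher and 2 lower. Ccl3 rose from 6.92 ± 1.79 to 17.0 ± 3.59 FPKM (log2 fold change 1.29, SE 0.23, edgeR adjusted p = 0.00506), and the monocyte chemokine Ccl2 rose by 2.48 (SE 0.56) on the log2 scale. Ccl5, a chemokine of T and NK cells, fell from 118 ± 27.8 to 39.6 ± 10.6 FPKM (log2 fold change -1.58, SE 0.22, edgeR adjusted p = 0.00189), and the eosinophil chemokine Ccl11 fell from 17.3 ± 2.68 to 8.72 ± 2.0 FPKM. Ccl7, not called at 2.67 (SE 0.96), passed without control 4. Of 9 tested ligands attributed to Ackr1, 2 were higher (Cxcl3 at 0.93, SE 0.13, and Ccl2) and 2 lower (Ccl5 and Ccl11). Cxcl1, at 0.76, passed without MCT 3, without MCT 4 and by DESeq2.

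Conventional chemokine and chemerin receptors are given as a description, since the receptors above were proposed on this contrast. Of 17 tested, 2 were called higher, 1 lower and 14 not called, with a median log2 fold change of -0.03. Over all genes tested, 11% were called higher and 9.45% lower, 20.5% either way, so this list does not stand out. Several of the 17 were scarce. With an FPKM of at least 1 required in 4 libraries, 10 were tested, 2 of them called higher and 1 lower. Cxcr4, the signalling receptor for Cxcl12, fell from 46.3 ± 3.12 to 31.7 ± 5.44 FPKM (log2 fold change -0.55, SE 0.12, edgeR adjusted p = 0.0119). The ratio of Ackr3 to Cxcr4 FPKM was 0.974 to 1.28 in control and 1.77 to 2.5 in MCT libraries. Xcr1 (1.67, SE 0.40) and Ccr1 (0.79, SE 0.19) were higher. Without MCT 2 or without MCT 3 neither was called, at log2 fold changes of 1.5 and 1.43 for Xcr1 and 0.77 and 0.69 for Ccr1. Xcr1 was also lost without control 2 (1.6) and Ccr1 without control 3 (0.73). Without control 3 the number called higher was 4. Cmklr1, which signals for chemerin, was at 53.4 ± 6.30 FPKM in control and 45.7 ± 6.82 in MCT and was not called.

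Adrenomedullin signals through Calcrl paired with a Ramp protein. Calcrl fell from 76.5 ± 16.7 to 24.7 ± 6.53 FPKM (log2 fold change -1.63, SE 0.22, edgeR adjusted p = 0.00157) and Ramp2 from 559 ± 50.5 to 298 ± 32.5 FPKM. Ramp3 rose from 9.95 ± 2.27 to 16.1 ± 2.82 FPKM (0.69, SE 0.19). The call of Ramp3 was lost without control 1, control 3, control 4, MCT 2 or MCT 4, at log2 fold changes of 0.59 to 0.68, and without control 1 and MCT 1 together (0.75). Of the arrestins, which are recruited to ligand-bound Ackr3 and Ackr4, Arrb1 fell from 16.7 ± 3.51 to 9.58 ± 2.24 FPKM (-0.81, SE 0.19). Arrb2 rose from 21.5 ± 3.64 to 33.8 ± 3.89 FPKM (0.66, SE 0.13). Arrb1 was not called without MCT 2 (-0.77). The 5 tested receptor kinase genes (Grk2 to Grk6) were not called, with edgeR adjusted p of 0.316 to 0.573.

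**Figure D4:**
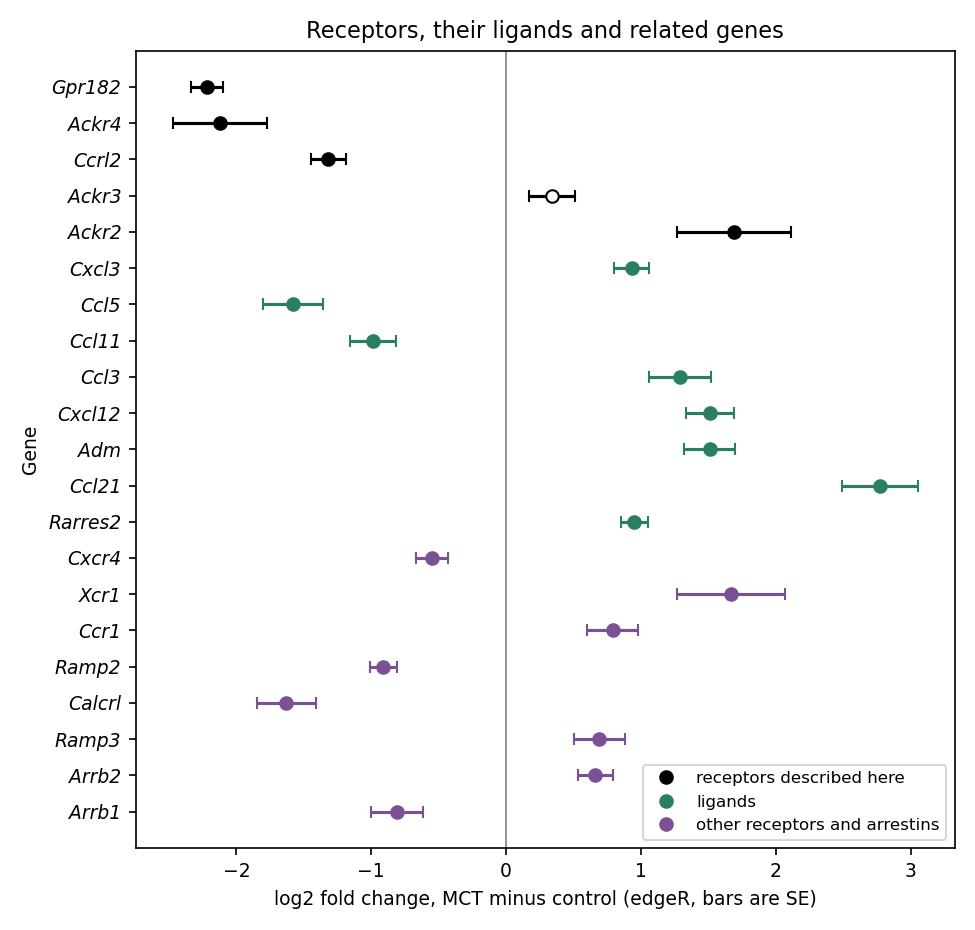
Log2 fold change, MCT minus control, with its SE (horizontal bars) from edgeR for the 5 measured receptors and for up to 3 called genes, those with the smallest p, of each list of ligands, other receptors and arrestins. Genes of these lists that were not called are left out; of the 5 receptors, Ackr3 (open point) was not called. Gpr182, Ackr4 and Ccrl2 lie left of 0, while Ccl21, Cxcl12, Adm and Rarres2 lie right of it.

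Markers of the cells that carry these receptors also differed between the groups, and their part in the receptors' values was not tested. For the marker counts here and below, the shares over all genes tested were 11% called higher and 9.45% lower. Of 11 tested pan-endothelial markers, 4 were lower (Tek, Clec14a, Esam and Vwf) and 1 higher (Emcn), with a summed level of 973 to 1110 FPKM in control and 709 to 877 in MCT libraries. Cdh5, Tie1 and Kdr were not called by edgeR with all libraries. The number of pan-endothelial markers lower was 6 without MCT 1 alone, and also with control 1 and MCT 1 both dropped. By DESeq2 with all libraries it was 5, with Cdh5 called. Gpr182 stood at 7.86 to 9.4 FPKM per 100 FPKM of the summed endothelial markers in control libraries and at 2.18 to 2.79 in MCT libraries. The same ratio was 0.79 to 1.04 and 0.148 to 0.461 for Ackr4, and 1.23 to 1.47 and 0.685 to 0.862 for Ccrl2. For these 3 receptors the groups stayed apart on that scale. The sum mixes markers that moved differently. In mean FPKM, Tek stood at 16.4% and Clec14a at 24.3% of control, but Egfl7 at 116% and Emcn at 222%. Tek and Clec14a thus fell further than Ccrl2, and Tek further than Gpr182 and Ackr4. Ackr3 per 100 FPKM of endothelial markers was 4.59 to 5.14 in control and 6.57 to 10.4 in MCT libraries. Of 8 venous markers, 4 were lower and 2 higher, among them Plvap (952 ± 161 to 316 ± 76.6 FPKM) and Vcam1 (11.7 ± 0.667 to 30.5 ± 6.05 FPKM). The list summed to 1280 to 1700 FPKM in control and 561 to 760 in MCT. One of the lower venous markers, Il1r1 (-0.44, SE 0.13), lost its call in 11 of 19 alternative settings, where the number lower was 3. Leaving out any single MCT library was among those settings.

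Lymphatic markers belong to vessels on which Ackr2 and Ackr4 are known. Of 7 tested, Ccl21, Mmrn1 and Prox1 were higher and Lyve1, which lung capillaries also make, was lower (123 ± 16.3 to 37.8 ± 5.22 FPKM). Their sum was 502 to 607 FPKM in control and 668 to 1050 in MCT libraries. Most of that sum was Pdpn, also an alveolar epithelial gene, and Ccl21, which is also in the Ackr4 ligand list. Prox1, the defining transcription factor, was near 0 in both groups (0.138 ± 0.0746 and 0.517 ± 0.205 FPKM), and its call was lost without MCT 2, MCT 3 or control 3, at log2 fold changes of 1.74 to 1.85. Ackr4 stood at 1.67 to 1.79 FPKM per 100 FPKM of the lymphatic sum in control and 0.166 to 0.514 in MCT libraries. Ackr2 on that scale was 0.0678 to 0.172 and 0.165 to 0.415, so its groups overlapped.

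For the blood cell types, 6 of 10 tested macrophage markers were higher and none lower, with a sum of 262 to 394 FPKM in control and 533 to 958 in MCT. Adgre1 and Cd14, both among the 6, had overlapping FPKM ranges and lost their calls in 7 and 9 of 19 alternative settings. The number of macrophage markers higher was 4 without MCT 2, MCT 4, control 1, control 2 or control 4, and 8 by DESeq2. C1qc and C1qa, complement genes of macrophages, rose by 1.84 and 1.78 on the log2 scale. Mast cell markers were all higher (8 of 8), with a sum of 13.8 to 24.5 FPKM in control and 263 to 1260 in MCT. Of 7 neutrophil markers, 2 were higher (Il1r2 and Trem1). Red blood cell markers summed to 1370 to 5850 and 1760 to 2890 FPKM, with a median log2 fold change of -0.11 over 7 genes. Of 8 fibroblast and smooth muscle markers, 1 was higher (Col1a1), with sums of 714 to 933 and 881 to 1240 FPKM. Of 8 alveolar epithelial markers, 2 were lower (Rtkn2 and Sftpc) and 1 higher (Lamp3), with sums of 29700 to 37900 and 21900 to 27500 FPKM. The number lower was 1 without control 1, 2 or 3 or MCT 2, 3 or 4, and 3 without MCT 1. Sftpc was called without control 4 but lost its call on leaving out any other single library, where the log2 fold change of Sftpc was -0.57 to -0.38. Lamp3 was not called without control 4, where the log2 fold change of Lamp3 was 0.62. The 7 ciliated cell markers summed to 563 to 767 and 350 to 721 FPKM, with a median log2 fold change of 0.12.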

How the data were processed

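RNA sequencing of rat lung (4 MCT, 4 control libraries) was analysed from 1 deposited table. The submitters' processing notes name cutadapt 1.9, HISAT2 2.0.4, StringTie 1.3.4d, edgeR and the build Rnor_6.0, without order or settings. Per the file headers, the authors deposited an FPKM value and an estimated count per gene and library. The deposited estimated counts are whole numbers whose low values recur about every 3.69 units, taken as 1 read pair, and rounding changed none. The strand setting of the counting is not stated in the labels or headers.

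Counts were filtered with filterByExpr (minimum count 10), scaled by TMM and tested with edgeR 4.0.16 (quasi-likelihood, robust, two-sided, R 4.3.3), adjusted over 16715 genes. FPKM gave levels, ratios and likeness. On simulated data recovery was 21% at a 1.5-fold change, 56.2% at 2-fold and 88.4% at 4-fold, and 4.62% of calls were false. Each of 3 simulations changed only 200 genes, drawn from those with higher counts, and did not copy the count spacing. The rates therefore need not hold for the real contrast.

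The receptors and gene lists were chosen with earlier results of these data known. Named genes were all receptors, the called genes with the 3 smallest p of each ligand, receptor or arrestin list (2 of each marker list) or, where none was called, the most abundant, and 3 nearest genes per receptor, leaving out clone and locus names. Others were named after their values were seen. Alternatives were limma 3.58.1 on log2(FPKM + 0.1, 0.5 or 1), DESeq2 1.42.0, other filters and scalings, a replicate block, leaving libraries out, and counts divided by 3.69. Pairs of libraries in a group differed by more than sampling noise (chi-square per gene at least 14.3).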

Additional observations from a re-analysis of the deposited data

Results flagged for a closer look

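A single library was isolated from the remaining 3 of its group in 6 of 74 sets of 4 values examined, where chance gives about 3.7. The measure divides the gap to the nearest library by the spread from lowest to highest, on log2(FPKM + 0.5). For Ackr2 in control lungs it was 0.893, since control 1 had 0.34 FPKM and the rest 0.80 to 0.87. For Ccrl2 in control lungs it was 0.865, since control 1 had 16.4 FPKM and the rest 13.6 to 14.0. Both receptors were thus set apart in the same control library, Ackr2 low and Ccrl2 high. Among ligands, Ccl11 reached 0.873 in MCT lungs, with MCT 3 at 11.7 FPKM against 7.52 to 7.96. Rarres2 reached 0.833, where MCT 1 had 115 FPKM and the rest 145 to 152. Arrb2 reached 0.899 through MCT 2, which had 39.6 FPKM beside 31.6 to 32.4 elsewhere in the group. Ms4a2, the mast cell IgE receptor chain, reached 0.906 because MCT 1 had 13.7 FPKM and the rest 37.3 to 41.4.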

How the results depend on the processing

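Gpr182, Ackr4 and Ccrl2 were called lower under all 19 alternatives run, with log2 fold changes of -2.30 to -2.13, -2.58 to -1.80 and -1.40 to -1.19. Ackr3 was called under none of the 19, at 0.13 to 0.45. Ackr2 was higher under all 19, at 0.91 to 1.88, and was called under 16. With control 1 and MCT 1 both left out, and with the replicate number as a block, 0 receptors were called higher, against 1 with all libraries and no block. Leaving out 1 library at a time gave 0 to 1 receptors called higher, 1191 to 1946 genes called higher in MCT (1845 with all libraries) and 975 to 1730 genes called lower in MCT (1579), the lowest counts without MCT 2. The Ackr2 call was lost in 3 settings, all with fewer libraries or fewer residual degrees of freedom; the cause was not tested further. Deviations of same-numbered libraries from their group means correlated at -0.0848 to 0.11, against -0.0789 to 0.0746 for differently numbered ones. The highest, 0.11, was that of control 1 and MCT 1, which also stood apart in ciliated airway cell transcripts. Of 8 libraries, 2 correlated best with their own number. So few pairs cannot exclude a pairing by replicate number. With the replicate block, genes called higher in MCT numbered 1436 and genes called lower in MCT 1271. Depth limits Ackr2 most, with 7 read pairs in control 1.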

Other observations

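Around Gpr182 on chromosome 7, several neighbouring genes were also lower in MCT lungs. Of 8 other genes tested within 150 kb, 4 were called lower and none higher by edgeR, where 9.45% of all genes tested were called lower. This window was chosen after its values were seen, and the number of genes is small. Zbtb39, a zinc finger gene that ends 1.5 kb away, went from 7.43 ± 0.157 to 4.13 ± 0.224 FPKM (n = 4 each, log2 fold change -0.85, SE 0.07). Myo1a, a brush border myosin gene 26.2 kb away, went from 1.29 ± 0.717 to 0.16 ± 0.0887 FPKM. Sdr9c7, 109 kb away on the other side, went from 10.5 ± 1.17 to 1.64 ± 0.471 FPKM (log2 fold change -2.67, SE 0.22), and it was also the second nearest gene to Gpr182 in its course over the 8 libraries. Stat6, 81.1 kb away, went from 46.4 ± 4.01 to 33.4 ± 3.51 FPKM. Lrp1, Nab2, Nemp1 and LOC100365958 in the same window were not called, so the lower genes were interleaved with others. In the same window around Ccrl2, 1 of 6 tested genes was called lower (Als2cl) and none higher.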
